A study of Danio rerio with 49 samples.

Results

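The change in the *rif1* mutant replication timing difference between 2 stages of zebrafish development was measured in 16 S-phase libraries, out of 49 libraries in the series. The libraries came from wild-type (WT) embryos and from embryos homozygous for the omf201 allele of *rif1* (omf201), all of the Tab5 strain. Each genotype was sampled at Bud (10 hours post fertilisation, hpf) and at 24 hpf, with 4 libraries in each of the 4 groups. For each genomic window the interaction was taken as the omf201 minus WT difference at 24 hpf, minus the same difference at Bud. A positive interaction, called higher here, means that the mutant difference moved toward earlier replication by 24 hpf, and a negative one, called lower, that it moved toward later replication. All 4 groups were nuclei of whole embryos stained for DNA with propidium iodide and sorted by DNA content. The genotype was taken from the labels and was not checked in the window counts. The protocol's sentence on sorting names 28hpf for one sorter, and the 24 hpf of the sample labels was used. Nuclei of all tissues were pooled, so a shift of timing within cells and a shift in the mix of cell types cannot be told apart.

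DNA is copied in a set order during S phase. Gene-rich, open chromatin usually replicates early and heterochromatin late, and in vertebrates this order is built up as embryonic cells take on their fates. Rif1 is a chromatin-bound protein that brings protein phosphatase 1 to origins of replication, where the phosphatase counteracts the kinase that fires them. In yeast and mammalian cells its loss lets late regions replicate earlier and delays early ones.

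Timing was read from copy number. In S-phase DNA, relative to G1 DNA, early windows have more copies than late ones. The authors divided S-phase counts by a G1 reference, smoothed the ratios along the chromosome and turned them into z-scores. A z-score states how many SDs a window lies above (earlier) or below (later) the mean of its own library. The z-score removes the overall range of a profile. That range, taken as the SD of log2 ratios over all windows, was 0.141 to 0.163 in the Bud WT libraries and 0.0929 to 0.103 in Bud omf201. At 24 hpf it was 0.204 to 0.224 in WT and 0.158 to 0.167 in omf201, so both genotypes had wider profiles at 24 hpf and omf201 had narrower ones at each stage.

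S-phase depth over windows that do not overlap was 5.90 to 15.1 M counts (M, 1e6) per library at Bud and 12.7 to 22.4 M at 24 hpf. Counting error, which covers counting only because reads were not tagged by molecule, was 3.02 to 5.89% of a single window before smoothing. Nothing in the labels says that the 4 libraries of a group came from separate clutches, so p-values measure the spread between these libraries. One library stood apart. Bud omf201 replicate 3 had 3.64% of its S-phase counts on chromosome 21, against 3.49 to 3.53% in the other 3 libraries of its group, and its G1 counterpart, also numbered 3, had 3.64% against 3.50 to 3.53%. Among all chromosomes and libraries compared, these were the 2 shares farthest from the others of their group, at 1.04 times their mean. Values on chromosome 21 are therefore given with and without it. Its part in the other results is covered by leaving it out, which gave 29.1% of windows with a called interaction in place of 26.4%.

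On z-scores the genotype difference changed between Bud and 24 hpf in about as many windows toward earlier as toward later replication. Each library's z-scores are centred on its own mean, so a near-even split is largely set by this scale. With limma, 31681 of 120059 windows (26.4%) had a called interaction, meaning a Benjamini-Hochberg adjusted p under 0.05 over all windows. Of these, 15688 (13.1% of windows) were higher and 15993 (13.3%) lower. At Bud alone 43.9% of windows differed between the genotypes, and at 24 hpf 73.3%, each stage being fitted on its own. In a single fit of all 16 libraries, where the stages share a spread, these shares were 56.1% and 62.6%. The median size of the interaction was 0.345 z-score units over all windows, with a median SE of 0.208, and 0.778 over the called ones. Values ran from -2.43 to 2.59. The omf201 difference was the larger of the 2 stages at 24 hpf in 59.7% of all windows and in 70.0% of the called ones. Windows overlap and were smoothed, so these are shares of the genome and not counts of separate events. Without smoothing 3.65% of windows were called, and edgeR on the S-phase counts called 10.8%. On log2 ratios with each library's median set to 0, 63.3% of calls were higher, against 49.5% on z-scores.

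**Figure D1:**
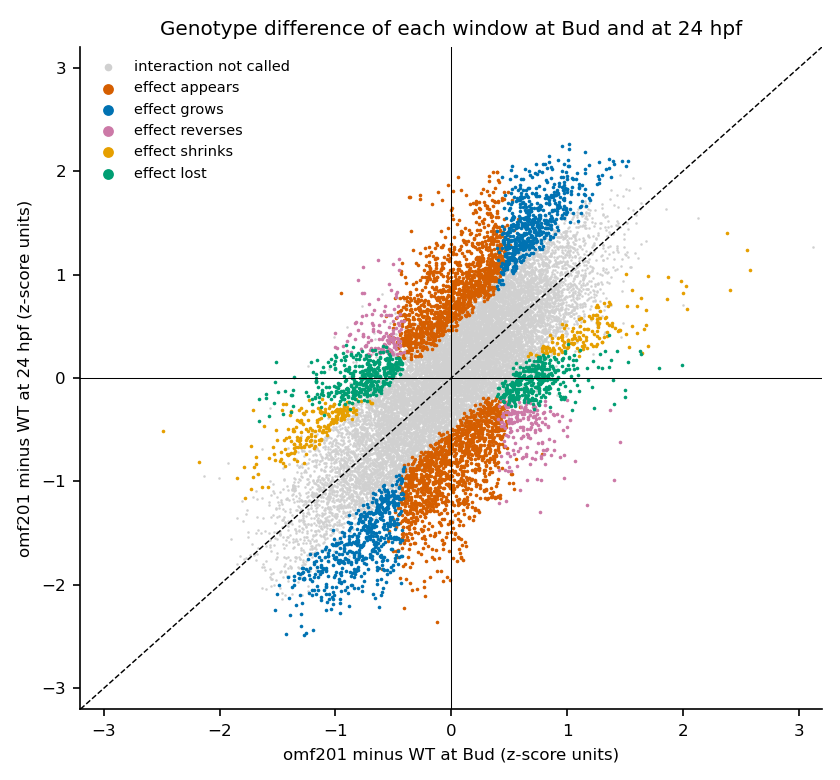
Omf201 minus WT difference in z-score at Bud (horizontal axis) and at 24 hpf (vertical axis), 1 point for each window of a set that does not overlap, coloured by class of interaction. The dashed line marks equal differences at both stages, and called windows lie away from it on both sides, with most of them farther from 0 at 24 hpf than at Bud.

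Called windows were sorted into classes by whether omf201 differed from WT at each stage in its own limma fit. The effect appeared (called at 24 hpf and not at Bud) in 15726 windows, 49.6% of the interaction calls. It grew (same sign at both stages, larger at 24 hpf) in 6847 windows, or 21.6%. It reversed (called at both stages with opposite signs) in 1964 windows, or 6.20%. It shrank in 2159 windows (6.81%) and was lost (called at Bud and not at 24 hpf) in 4541 (14.3%), and 444 (1.40%) had neither effect called. The plot of genotype differences shows these classes as sectors around the diagonal. A missed call at Bud is not evidence of no difference there, because the median SE of the genotype difference was 0.182 at Bud and 0.0984 at 24 hpf. The share of growing windows was 5.70% on z-scores and 18.0% on log2 ratios, and that of shrinking windows 1.80% and 0.731%. Without 24 hpf WT replicate 4 the share of shrinking windows was 1.195%.

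Class means per library show where the average of each group lay, as a description, since the windows were chosen by these values. Moves of single windows in opposite directions cancel in such a mean. In the 7586 windows where the effect appeared as higher, the mean z-score was -0.243, -0.239, -0.233 and -0.222 in the Bud WT libraries and -0.179, -0.159, -0.285 and -0.194 in Bud omf201. At 24 hpf it was -0.132, -0.133, -0.151 and -0.143 in WT, and 0.704, 0.744, 0.733 and 0.745 in omf201. The Bud groups overlapped, the WT class mean stayed below the mean of its libraries at both stages, and all 4 omf201 libraries at 24 hpf stood far above. The 8140 windows where it appeared as lower were early in WT at both stages (Bud 0.733 ± 0.0161, 24 hpf 0.843 ± 0.00367, SD over 4 libraries). In omf201 their mean was 0.743 ± 0.0178 at Bud and -0.0332 ± 0.0214 at 24 hpf, the value of an average window.

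Where the effect grew, the genotypes differed at Bud by the rule of the class, and the omf201 class mean then moved farther from WT. The 3499 windows that grew as higher had 0.407 ± 0.0336 in omf201 against -0.306 ± 0.0351 in WT at Bud, and 1.39 ± 0.0387 against -0.122 ± 0.0060 at 24 hpf (SD over 4 libraries). Those WT values are late or average, and the omf201 value at 24 hpf is among the early part of the profile. The 3348 windows that grew as lower had 0.289 ± 0.0349 in omf201 against 1.06 ± 0.0098 in WT at Bud, and -0.413 ± 0.0264 against 1.17 ± 0.0060 at 24 hpf. These were the earliest of the 10 sets in WT, and in omf201 at 24 hpf their mean was on the late side.

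Reversing windows had the opposite pattern at the 2 stages. In the 815 windows that reversed as higher, omf201 was below WT at Bud (-0.661 ± 0.0387 against -0.0543 ± 0.0186) and above it at 24 hpf (0.302 ± 0.0189 against -0.145 ± 0.0139). In the 1149 that reversed as lower, omf201 was above WT at Bud (1.00 ± 0.0381 against 0.344 ± 0.0543) and below it at 24 hpf (0.294 ± 0.0272 against 0.787 ± 0.0020). The WT mean moved little in the first set and toward earlier in the second. Where the effect was lost, the genotypes met, and WT moved as well as omf201. The 2367 windows lost as higher had -0.777 ± 0.0377 in omf201 against 0.0045 ± 0.0303 in WT at Bud, and -0.306 ± 0.0098 against -0.310 ± 0.0117 at 24 hpf.

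**Figure D2:**
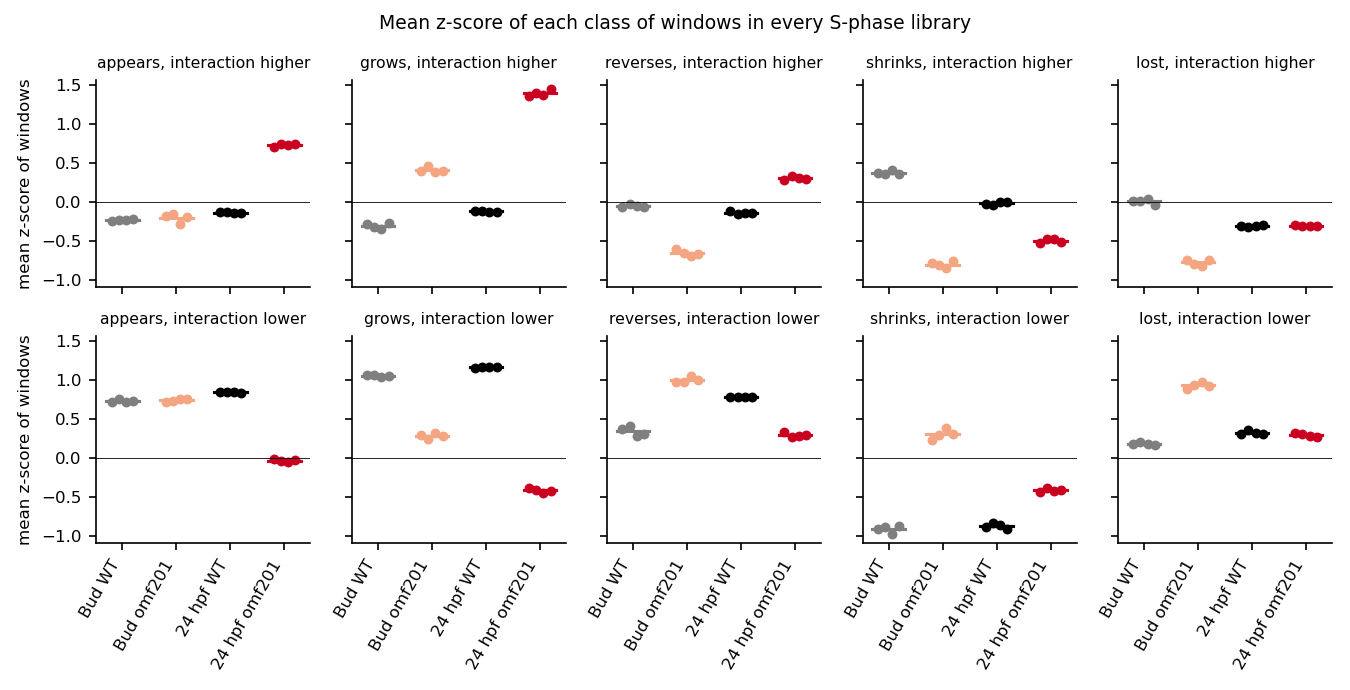
Mean z-score of the windows of each class (columns) and direction of the interaction (rows) in every S-phase library, with 4 points and a bar at their mean for each group. The 24 hpf omf201 libraries stand apart from the other groups where the effect appears or grows, and the Bud omf201 libraries where it is lost.

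Called windows lay in runs. Windows overlap and were smoothed, so neighbouring calls depend on each other, and run lengths without smoothing were not computed. Consecutive windows of one direction formed 780 runs of higher calls (median 210 kb, longest 1570 kb) and 700 of lower calls (median 230 kb, longest 1230 kb). Runs of a single class were longest where the effect appeared (up to 1250 kb higher and 1130 kb lower). Reversing runs reached 510 and 590 kb. The longest runs of each class are described next by their coordinates on GRCz11, and no genes are named, as no annotation of that build was used here. They were chosen for being called, so their values describe them and get no test of their own, and SE and SD are over 4 libraries a group.

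The longest run where the effect appeared was chr19:27900000-29150001. Its mean z-score at Bud was 0.141, 0.137, 0.345 and 0.0681 in WT and 0.480, 0.236, 0.130 and 0.297 in omf201, and the groups overlapped. At 24 hpf it was 0.337, 0.263, 0.243 and 0.290 in WT, and 1.83, 1.84, 1.74 and 1.84 in omf201. Only the last group moved away from the others, and the omf201 difference went from 0.113 to 1.53, an interaction of 1.42 ± 0.0997 (SE). In the next 2 higher runs both genotypes moved, 1 from late and 1 from average values at Bud. At chr19:37220000-38050001 WT went from -1.47 ± 0.0369 to -0.628 ± 0.0655 and omf201 from -1.41 ± 0.222 to 0.220 ± 0.106 (SD), so omf201 moved farther toward earlier. At chr10:31280000-32390001 the difference went from -0.164 to 0.844 (interaction 1.01 ± 0.164), with moves toward earlier of 0.740 in WT and 1.75 in omf201. EdgeR on counts called 70% of the windows of the longest run, 2.56% at chr19:37220000-38050001 and 23.6% at chr10:31280000-32390001.

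Where the effect appeared as lower, early regions kept their place in WT and left it in omf201. At chr3:31760000-32880001 the Bud values were 1.58, 1.61, 1.105 and 1.32 in WT and 1.32, 1.31, 1.29 and 1.40 in omf201. At 24 hpf they were 1.14, 1.13, 1.21 and 1.27 in WT, and -0.110, -0.189, -0.161 and -0.122 in omf201. The Bud groups overlapped and the 24 hpf groups did not, and the interaction was -1.26 ± 0.128. At chr6:28870000-30000001 WT was 0.959 ± 0.149 at Bud and 0.885 ± 0.0378 at 24 hpf, and omf201 went from 1.11 ± 0.127 to 0.0414 ± 0.103. The third run, chr21:29980000-30950001, had an interaction of -1.14 ± 0.225, and of -0.983 without Bud omf201 replicate 3, and every window of it was still called and in the same class without that library.

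Growing regions differed at Bud by the rule of their class. At chr12:32270000-33160001 the Bud values were -0.318, -0.554, -0.564 and -0.386 in WT and 0.328, 0.126, 0.481 and 0.386 in omf201. At 24 hpf they were -1.24, -1.29, -1.16 and -1.19 in WT, and 0.471, 0.501, 0.457 and 0.555 in omf201. Most of the growth here was a move toward later in WT (-0.763), which omf201 did not share (0.166), and the difference went from 0.786 to 1.71. In the next 2 higher runs it was omf201 that moved. At chr14:42430000-43130001 the WT mean changed by 0.0055 and the omf201 mean by 0.750, and at chr1:42330000-43040001 by 0.274 and 0.894. The largest omf201 difference among the 26 regions at 24 hpf was in the first of these, at 1.95 z-score units. With each stage's own G1 libraries as the reference, 20.3% of this last run's windows kept a call.

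The longest run where the effect grew as lower was chr24:26330000-27130001. Bud values were 1.06, 0.966, 1.103 and 0.868 in WT and 0.122, -0.132, 0.298 and 0.272 in omf201. At 24 hpf they were 1.52, 1.56, 1.48 and 1.495 in WT, and -0.315, -0.484, -0.447 and -0.278 in omf201. The genotypes moved in opposite directions, WT by 0.514 toward earlier and omf201 by -0.521 toward later, and the difference went from -0.860 to -1.90. The other 2 runs had the same opposite moves, 0.118 and -0.781 at chr13:36300000-36880001, and 0.325 and -0.507 at chr19:11400000-11980001. On chromosome 13 the share of windows still called with each stage's own G1 libraries was 28.3%, and the 4 Bud omf201 libraries ranged from -0.151 to 0.831.

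Among reversing regions, chr20:40400000-40910001 was late in all groups. Bud values were -0.973, -1.04, -1.12 and -0.861 in WT and -1.50, -2.05, -1.78 and -1.57 in omf201. At 24 hpf they were -0.917, -0.916, -0.741 and -0.794 in WT, and -0.545, -0.399, -0.452 and -0.533 in omf201. The groups did not overlap at either stage, and the difference went from -0.728 to 0.360 while WT changed by 0.155. At chr11:43630000-44000001 both genotypes moved earlier, WT by 0.757 and omf201 by 2.04, and omf201 passed WT on the way (difference -0.710 at Bud and 0.575 at 24 hpf). The run at chr17:12260000-12640001 went from -0.553 to 0.530, but with each stage's own G1 libraries none of its windows was in the reversing class, while 87.9% had a called interaction.

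Both of the longest runs that reversed as lower were on chromosome 21, next to each other. At chr21:23130000-23720001 the Bud values were -0.0913, 0.262, -0.0072 and 0.237 in WT and 0.787, 0.944, 1.39 and 0.678 in omf201. At 24 hpf they were 2.03, 1.81, 1.93 and 2.05 in WT, and 1.44, 1.23, 1.34 and 1.67 in omf201. WT made the larger move here, 1.86 toward earlier against 0.471 in omf201, so omf201 led at Bud and trailed at 24 hpf. Its neighbour chr21:23910000-24450001 had the same order, with moves of 1.76 in WT and 0.613 in omf201. Without Bud omf201 replicate 3 the interactions were -1.24 and -1.04 in place of -1.38 and -1.15, with every window called, and 98.1% and 83.7% of windows in the same class. With each S library divided by its own same-numbered G1 library they were -0.847 and -0.866. With each stage's own G1 libraries 88.9% and 83.7% of the windows of the 2 runs were called. Only 35.2% and 40.8% were then in the reversing class. The third run, chr8:9090000-9540001, moved in omf201 (-1.34) and hardly in WT (-0.139), and with each stage's own G1 libraries 80.0% of its windows were called and none was in the reversing class.

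**Figure D3:**
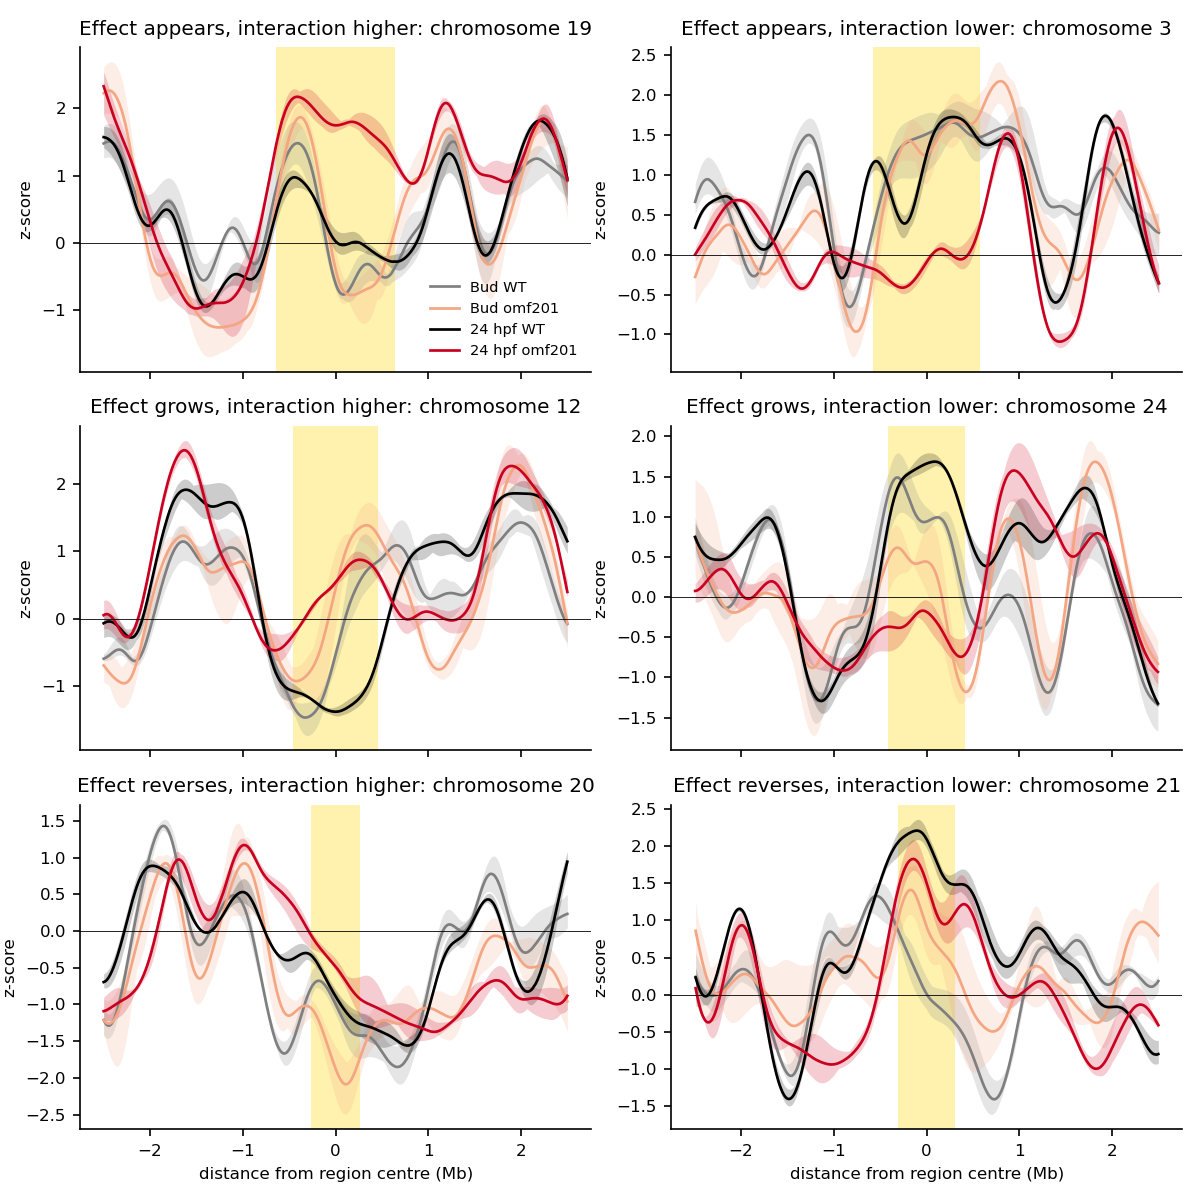
Mean z-score along the chromosome around 6 named regions (shaded), with distance from the region's centre in Mb on the horizontal axis. Lines are means of 4 libraries and bands their lowest to highest value. In the chromosome 19 and chromosome 3 regions only the 24 hpf omf201 line leaves the others, and in the chromosome 20 and chromosome 21 regions the order of the genotypes changes between the stages.

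Shrinking and lost effects were differences present at Bud by the rule of their classes. At chr25:9340000-9900001, a late region in WT, the Bud values were -1.25, -1.33, -1.34 and -1.07 in WT and 0.361, 0.258, 0.972 and 0.550 in omf201. At 24 hpf they were -1.69, -1.69, -1.86 and -1.87 in WT, and -1.001, -0.788, -0.890 and -0.990 in omf201. Both genotypes moved later, omf201 by -1.45 and WT by -0.529, and the groups stayed apart. On log2 ratios the interaction of this run had the opposite sign (0.0095, against -0.924 z-score units). At chr14:8690000-9120001 it was WT that moved (-0.701) and omf201 stayed (-0.0322). None of the windows of these 2 runs was called by edgeR on counts.

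At chr9:43270000-43770001, where the effect was lost, WT had -0.101, -0.0484, -0.0013 and -0.170 at Bud and 0.0481, -0.140, -0.0892 and -0.0727 at 24 hpf. Omf201 had -0.828, -0.891, -0.855 and -0.994 at Bud, and 0.0946, 0.172, 0.137 and -0.0785 at 24 hpf. The groups were apart at Bud and overlapped at 24 hpf, and omf201 alone had moved (0.973, against 0.0167 in WT). The move was also on the omf201 side at chr1:21270000-21770001 (0.703 against -0.0475) and chr5:32710000-33170001 (-1.15 against -0.335). At chr8:38030000-38580001 WT moved by 0.885 and omf201 by 0.174, so there WT came to the omf201 level. With each stage's own G1 libraries, the share of windows in the lost class differed between these runs. It was 51.1% on chromosome 9, 42.2% on chromosome 1, 87.2% on chromosome 5 and 86% on chromosome 8. In the same order, edgeR on counts called 22.2, 2.22, 7.69 and 16% of their windows.

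**Figure D4:**
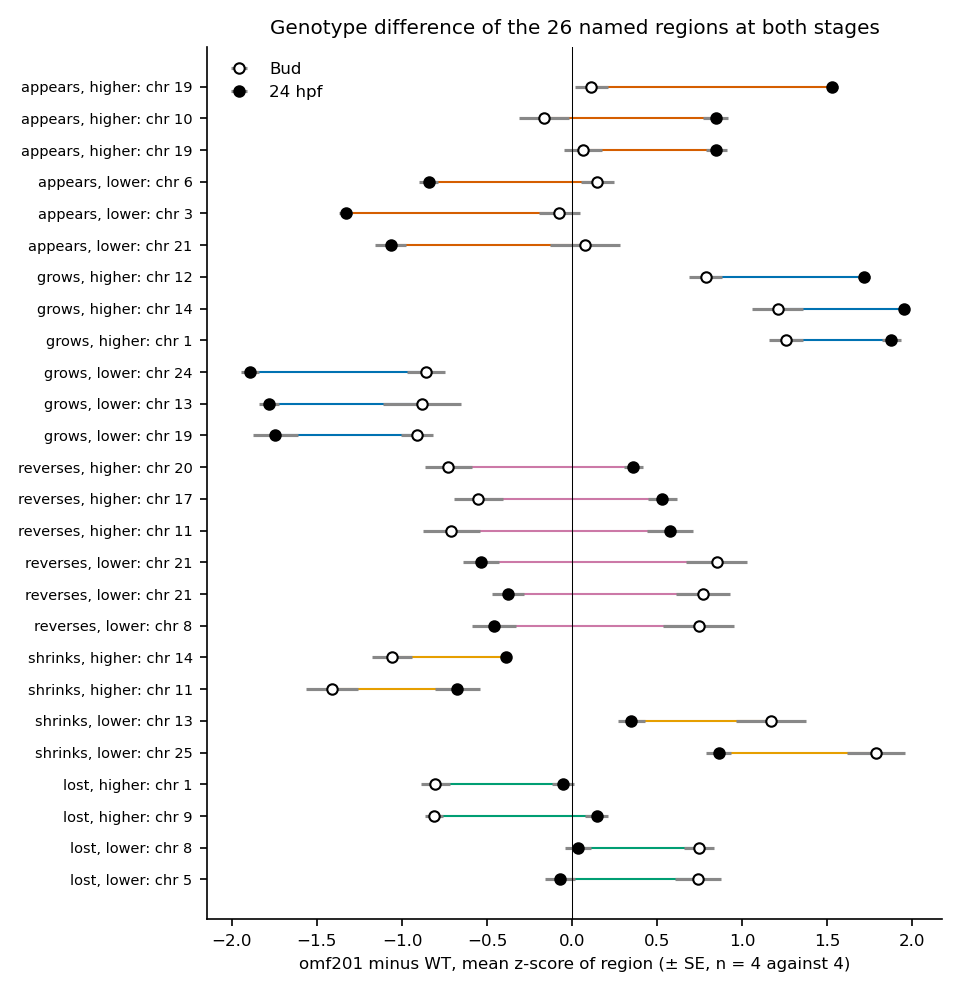
Omf201 minus WT difference of the mean z-score of the 26 named regions at Bud (open points) and at 24 hpf (filled points), with SE bars over 4 against 4 libraries. Regions are in the order appears, grows, reverses, shrinks and lost, and a line joins the 2 stages of each region, ending up to 1.53 units from 0 where the effect appeared and up to 1.95 where it grew.

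Across the named regions the share of windows called by edgeR on counts was 0 to 84.9%, and with each stage's own G1 libraries 20.3 to 100%. The same contrast in G1 DNA was between -0.0644 and 0.0519 in log2 for each of them. The 3 runs that reversed as lower held the lowest values, -0.0644 and -0.0504 on chromosome 21 and -0.0592 on chromosome 8, with the same sign as their S-phase interaction. The sign was also shared in the other named regions, except in 6 runs. These were the 3 runs that appeared as lower, and those at chr12:32270000-33160001, chr19:11400000-11980001 and chr5:32710000-33170001. The part of G1 copy number in the named regions was not tested beyond the values given with other G1 references.

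Which genotype moved was read from the steps from Bud to 24 hpf, called in 61.6% of windows in WT and in 54.9% in omf201. The median SE of the step was 0.114 in WT and 0.1685 in omf201, so these shares depend on precision too. In a single fit of all 16 libraries, where the genotypes share a spread, they were 50.6% in WT and 62.6% in omf201. Among windows with a called interaction, 11470 (36.2%) had a called step in omf201 only and 7481 (23.6%) in WT only, against 16.2% and 22.9% of all windows. Both genotypes moved the same way in 9829 (31.0%) and in opposite directions in 2377 (7.503%), against 36.7% and 1.98% of all windows. The step was larger in omf201 in 72.6% of interaction calls and 61.0% of all windows. Omf201-only steps outnumbered WT-only steps in 30 of 32 alternatives, but the margin was small or reversed on log2 ratios and counts, where shares over all windows were not computed. On log2 ratios 28.3% had a called step in omf201 only and 27.5% in WT only, with the larger step in omf201 in 49.3%. With edgeR on counts these were 40.2%, 39.8% and 51.5%, and after centring log2 ratios on the median WT-only steps were the more common (31.0% against 24.8%), as with DESeq2 on counts (43.0% against 39.7%).

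Shares differed between the classes. Of the windows that appeared as lower 43.8% had a step in omf201 only and 22.6% in WT only, and of those that grew as lower 45.2% and 22.0%. Windows that appeared as higher most often moved the same way in both genotypes, as did all windows (40.5% against 36.7%). They had a step in omf201 only in 35.7% and in WT only in 17.0%. Those that grew as higher also most often moved the same way in both (49.0%), and those that shrank as higher most often had a step in WT only (50.0%). Steps in opposite directions were most frequent in windows that reversed as lower, at 23.1%. Where the effect was lost, WT-only steps were the more frequent, as they were over all windows (22.9% against 16.2% omf201-only). The shares were 40.9% against 33.6% omf201-only in higher windows and 30.7% against 27.7% in lower ones.

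As a whole-profile value, each 24 hpf library was set against the mean Bud profile of its own genotype. The correlation across windows was 0.812, 0.802, 0.812 and 0.814 in the WT libraries and 0.684, 0.670, 0.675 and 0.679 in omf201. All omf201 libraries lay below all WT libraries, though the 4 values of a genotype share its Bud mean. Bud omf201 profiles also had the narrower range (SD of log2 ratios 0.0929 to 0.103, against 0.141 to 0.163 in Bud WT). The part of counting noise in this order was not tested. With each stage's own G1 libraries as the reference the values were 0.813 to 0.826 in WT and 0.691 to 0.706 in omf201, so the order of the genotypes was the same without a shared reference.

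The genotype difference also kept much of its pattern. Because both stages of a genotype share one G1 reference in the deposited z-scores, this was measured with each stage's own G1 libraries, so that Bud and 24 hpf had no library in common. Over 20452 windows that do not overlap, the correlation between the omf201 minus WT difference at Bud and at 24 hpf was 0.706, and 0.608 to 0.762 by chromosome. Of the 53714 windows called at Bud in that setting, 83.7% were called at 24 hpf too, against 73.0% of all windows, and of those called at both 94.9% had the same sign. By class and direction, the windows shared between the deposited z-scores and own-stage G1 libraries were 54.1 to 72.1% of the first list and 47.7 to 77.2% of the second.

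Where in the timing programme the interaction lay was asked with a measure that the contrast does not use, the timing of WT whole-embryo DNA at the Shield stage. Regions early at Shield moved later in omf201 relative to WT between Bud and 24 hpf, and late regions moved earlier. In the earliest 10% of windows 37.7% had a called lower interaction and 3.07% a higher one. In the latest 10% the shares were 2.57% lower and 19.4% higher, against 13.3% and 13.1% of all windows. The median interaction went from 0.218 in the latest 10% to -0.409 in the earliest. Windows that appeared made up 21.9% and those that grew 13.0% of the earliest 10%, against 13.1% and 5.70% of all windows, while reversing windows were 1.80% of it, near their 1.64% overall. These directions held in 32 of 32 alternatives, with 7.37 to 47.9% of the earliest 10% called lower and 1.97 to 31.6% of the latest 10% called higher. Shield profiles used WT G1 libraries of both later stages in their reference, and so share that reference with the WT libraries of the contrast.

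The named regions fell on both sides of this pattern. Of the 6 regions where the effect appeared or grew as lower, 5 had a Shield WT z-score of 0.929 to 1.76, and the run on chromosome 19 at 11400000 had -0.285. All 6 where it appeared or grew as higher had between -1.07 and 0.0062. The reversing, shrinking and lost regions were mixed. Regions that reversed as higher had -0.591, -0.354 and -0.1725, and those that reversed as lower -1.06, -0.771 and 0.0810. Shrinking regions had 0.178 and 0.385 as higher, and -0.384 and -0.862 as lower. Lost regions had 0.815 and -0.190 as higher, and -1.02 and 0.565 as lower.

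By chromosome, called windows ranged from 20.9 to 30.7% outside the long arm of chromosome 4, the repeat-rich late-replicating arm of that chromosome. The arm itself, windows starting at or after 28000000, had 7.04% called. Its median SE was larger, at 0.299 against 0.208 elsewhere, and its median interaction was 0.242. Of windows wider than 60 kb 17.6% were called, and of the others 27.3%. Windows within 5 Mb of a chromosome end were called in 26.3%, as often as the rest (26.4%).

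A whole chromosome was tested through its mean z-score, over 26 features with chromosome 4 split at the arm. With limma, 1 of 26 (3.85%) was called, chromosome 14. Its mean was -0.186, -0.214, -0.178 and -0.137 in Bud WT and -0.105, -0.130, -0.148 and -0.0473 in Bud omf201. At 24 hpf it was -0.214, -0.194, -0.197 and -0.234 in WT, and -0.0331, 0.0186, 0.0118 and 0.0006 in omf201. The 24 hpf groups did not overlap and the Bud groups did, and the interaction was 0.138 ± 0.0308 (SE, limma adjusted p = 0.0104). On this chromosome 22.1% of windows were called higher and 6.26% lower.

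Chromosome 21 had the opposite balance, with 21.7% of windows lower and 3.52% higher. Its mean in Bud omf201 was 0.0833, -0.101, 0.506 and -0.0402, so that replicate 3 stood above the rest, while Bud WT was 0.0494 to 0.0979. At 24 hpf WT was 0.0685 to 0.119 and omf201 -0.199 to -0.120. The mean interaction was -0.294 ± 0.123 with limma adjusted p = 0.107, and without replicate 3 it was -0.163 ± 0.0437 with limma adjusted p = 0.0263. Without it 19.6% of chromosome 21 windows were lower and 6.97% higher. With each S library divided by its own same-numbered G1 library the mean was -0.127 (limma adjusted p = 0.000513), and with each stage's own G1 libraries -0.127 (limma adjusted p = 0.596).

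**Figure D5:**
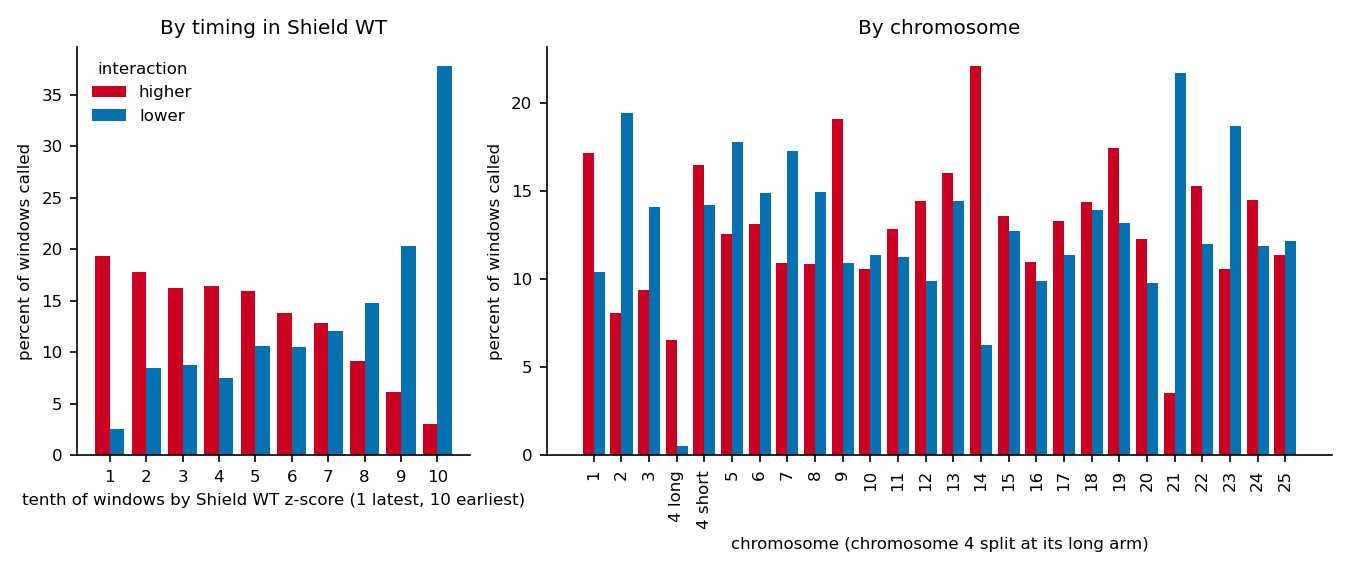
Percent of windows with a called interaction, higher in red and lower in blue, by 10 equal groups of windows ordered by their Shield WT z-score (left) and by chromosome (right, chromosome 4 split at its long arm). Lower calls reach 37.7% in the earliest group and higher calls 19.4% in the latest, and chromosomes 14 and 21 have the most uneven balance of the 2 directions among whole chromosomes.

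As a background the same contrast was run on the G1 counts of the 16 matching G1 libraries, sorted as G1 by DNA content. Whether these fractions were free of S-phase nuclei was not tested. With the quasi-likelihood test of edgeR, 1 of 120082 windows (0.000833%) was called, at chr7:7870000-7970001 with a log2 interaction of 0.57 and an adjusted p of 0.0282. At an unadjusted p under 0.05 there were 5897 windows (4.91%), and DESeq2 called 3. The same edgeR test on the S-phase counts, also unsmoothed, called 10.8% of windows. G1 libraries had 6.596 to 27.6 M counts.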

How the data were processed

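Genomic DNA of sorted nuclei was sequenced as paired-end reads, and per the labels' protocols G1 and S fractions were separated by propidium iodide staining. The submitters' processing notes name fastp, BWA, Picard and GRCz11, with no roles, and the series' design text names RepliTimer 1.0.11. The authors deposited counts per window for 120082 windows, 90.3% of them 60 kb wide, at steps of 10 kb. They also deposited the ratio of each S-phase count to a G1 reference, smoothed ratios, log2 of the smoothed ratios, and z-scores for 120059 windows. The z-score is a score centred and scaled per library by the authors. Recomputing from the counts gave the deposited z-scores to within 5.00e-07, with the G1 reference as the median of the 8 G1 libraries of a genotype, each divided by its mean, and a cubic smoothing spline with penalty 1e+16 over stretches broken at gaps above 200 kb.

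From there, limma 3.58.1 in R 4.3.3 was fitted to the z-scores of the 16 libraries' 4 groups, with Benjamini-Hochberg adjustment over all windows and a threshold of 0.05. G1 counts were tested with the edgeR 4.0.16 quasi-likelihood test. The scripts were tested on simulated data. Alternatives were other scales, no smoothing, 3 other G1 references, edgeR and DESeq2 1.42.0 on S-phase counts, a stricter threshold, subsets of windows, other fits, a replicate block, and leaving out each library. Values on chromosome 21 without Bud omf201 replicate 3 were chosen after seeing the data. For each class and direction, the longest runs of called windows were named, 3 each for appears, grows and reverses and 2 each for shrinks and lost, joining windows within 20 kb. The contrast, classes and naming rule were chosen with earlier results of these data known. Gene lists were not used here, since the coordinates of the gene table given are of another build.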

Additional observations from a re-analysis of the deposited data

Results flagged for a closer look

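In 6 of 116 groups of 4 libraries tested, 1 library lay far from the other 3 of its group, where chance gives about 5% of groups. In the chromosome 21 region where the effect appeared as lower, 24 hpf omf201 replicate 4 had a mean z-score of 0.0070, and the others -0.213 to -0.195. In the chromosome 19 region where the effect grew as lower, WT replicate 4 stood apart at both stages, at 0.482 against 0.330 to 0.338 at Bud, and at 0.461 against 0.757 to 0.780 at 24 hpf. Bud omf201 replicate 1 had -0.674 against -1.05 to -1.01 in the chromosome 14 region where the effect shrank. In the chromosome 13 region where it shrank, 24 hpf WT replicate 3 had -1.11 against -1.18 to -1.17. Bud WT replicate 4 had 1.71 against 1.36 to 1.40 in the chromosome 5 region where the effect was lost. Causes were not tested.

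The genotype difference itself differed between the stages by a test in 26.39% of windows, and in the mean of chromosome 14, by 0.138 z-score units.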

How the results depend on the processing

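Shares are percents of windows, in the order interaction, appears, grows, reverses, shrinks and lost where several are given, and causes of the changes were not tested. At an adjusted p under 0.01 the interaction was called in 14.4%, growing in 2.04%, reversing in 0.517%, shrinking in 0.466% and lost in 1.87%, the Bud difference in 28.1%, and 0 chromosome means. On log2 ratios the interaction was called in 40.2%, growing in 18.0%, shrinking in 0.731%, with 7 chromosome means, and after centring on the median in 41.5%, 18.1%, 0.661% and 19. The interaction of the chromosome 25 region where the effect shrank changed sign on log2 ratios (0.0095) and after centring (0.0278), and that of the chromosome 13 region where it shrank after centring (0.0115). Centring also made 63.3% of interaction calls higher, and 68.7% of those that appeared. Without smoothing the 6 shares were 3.65, 2.94, 0.0292, 0.152, 0.0392 and 0.450%, with the Bud difference in 13.0%, the WT step in 32.5% and the omf201 step in 25.2%. With each S library divided by its own same-numbered G1 library the interaction was called in 15.4%, growing in 1.74%, reversing in 1.05%, shrinking in 1.05% and lost in 2.13%, with 7 chromosome means. The reference of the same stage gave 3 chromosome means and a common reference 6. One fit of all S-phase and whole-embryo libraries gave 10.8, 5.78, 2.23, 0.635, 0.156 and 1.86%, and the WT step in 35.7%. With edgeR on counts the shares were 10.8, 7.11, 2.196, 0.379, 0.0633 and 0.906%. With DESeq2 on counts they were 6.55, 5.13, 0.810, 0.107, 0.0200 and 0.349%, with the Bud difference in 22.5%, the WT step in 35.2% and the omf201 step in 29.4%.

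Leaving out each library gave the interaction in 22.3 to 29.2%, shrinking in 1.195 to 2.14%, the G1 contrast in 0 to 0.0050% and 1 to 2 chromosome means. The value of 1.195% came without 24 hpf WT replicate 4, and 2 chromosome means were called without Bud WT replicate 2, Bud omf201 replicate 3 or 24 hpf WT replicate 4. With the replicate number as a block the interaction was called in 26.1%, the G1 contrast in 0.0050% and 2 chromosome means. Between S-phase groups, deviations of libraries with the same number correlated at -0.113 to 0.188. At most 2 of 4 libraries correlated best with their own number, so the numbers were not taken to pair S-phase libraries across groups. Pairing of the S and G1 libraries of one number was not tested in this way. On chromosome 21, Bud omf201 replicate 3 had count shares of 1.037 (S) and 1.036 (G1) times the mean of its group's other libraries. The main fit does not use such a pairing. DESeq2 called 0.0025% of windows in the G1 contrast. Over all alternatives, 260 shares and counts of calls stayed within 1.5 times the reported one and 72 did not. For the shares by Shield timing and by which genotype moved, these numbers were 193 and 33. Interactions of the named regions stayed within their SE in 566 cases, moved farther or were on another scale in 81, and changed sign in 3. Some settings, such as the replicate block, cannot change a region's value. Depth was lowest at Bud, where 1 omf201 library had 5.90 M counts. Windows that overlap, and smoothing, make neighbouring calls dependent.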
